A study of Mus musculus with 16 samples.

Results

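Aminoacyl-tRNA synthetases are the enzymes that load each amino acid onto its transfer RNA. The 36 synthetase genes described here were picked by symbol from the 24946 gene names of the deposited tables, 20 of them for cytosolic and 16 for mitochondrial enzymes. A gene was kept where at least 4 of the 16 libraries reached 1 TPM, the deposited unit, a measure per transcript length that sums to the same total in each library, and all 36 were kept, among 12684 genes that met this minimum. The mitochondrial genes are those whose symbol ends in 2. The remaining letters give the amino acid, so that Wars charges tryptophan in the cytosol and Wars2 charges it in mitochondria.

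The libraries came from lymphatic endothelial cells (LECs), sorted as live CD45- CD31+ Podoplanin+ cells from popliteal and brachial lymph nodes (LNs) of WT and Clever-1 KO mice. Clever-1 is a scavenger receptor encoded by Stab1, and the labels give the KO genotype as Stab1-/- with no restriction to one cell type. WT and KO mice each gave 4 steady-state libraries and 4 inflamed libraries, the latter taken 1 day after ovalbumin (OVA) had been injected with adjuvant into the footpad. A supplementary legend on these TPM says that a dot stands for a pair of mice, and the sources used here do not say how the cells of a pair were combined. The mice were young adults of both sexes. The labels name complete and the study's methods incomplete Freund's adjuvant, and the labels name C57BL/6 mice where the methods describe a mixed C57BL/6N and 129SvJ background, WT controls included. Nothing pairs a library of one group with a library of another, and no group received adjuvant alone, so OVA, adjuvant and injection cannot be told apart.

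Cytosolic synthetases supply the ribosomes that make most cell proteins, and several of them sit in one multisynthetase complex held together by scaffold proteins. Mitochondrial synthetases are encoded in the nucleus and serve the few proteins translated inside mitochondria, and some genes, such as Gars and Kars, make enzymes for both places. When amino acids run short, uncharged tRNA activates the kinase GCN2, and the transcription factor ATF4 then raises many cytosolic synthetase genes together with genes of amino acid synthesis and transport. Tryptophanyl-tRNA synthetase is in addition known as an interferon-gamma-induced gene.

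Stab1 stood at 235 to 248 TPM in the 4 WT libraries and at 5.09 to 6.66 TPM in the 4 KO libraries, and after OVA at 193 to 640 and at 5.85 to 8.90 TPM, as the labels say. Of 8 LEC markers 7 could be tested, and Ccl21a was listed at 0 in all 16 libraries. The LEC transcription factor Prox1 reached 53.5 to 104 TPM in 15 libraries. WT inflamed replicate 2 stood apart, with Prox1 at 16.8 TPM, 10903 genes at 1 TPM or more against 11898 to 12133 in the other 15 libraries, and a correlation with the rest of its group of 0.918 against 0.973 to 0.99 elsewhere. It was the lowest library of its group for 32 of the 36 synthetase genes, the exceptions being Cars2, Fars2, Lars2 and Yars2, and for 69.4% of all 12684 genes. For the synthetase genes that rose or fell and are described in full, and for the counts of synthetase genes, WT changes after OVA are therefore given both with and without it.

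At steady state the cytosolic genes were on the whole the higher ones. Because TPM are per length, levels of different genes are set side by side here, with limits. The library kit does not mark strand, and 16 of the synthetase genes overlap another gene, whose reads may be counted with theirs. Whether reads of ribosomal RNA were counted under Lars2 was not tested. The 20 cytosolic genes summed to 1214 to 1293 TPM in the 4 WT libraries and the 16 mitochondrial genes to 434 to 513 TPM, of which Lars2 alone took 204 to 281 TPM. Without Lars2 the other 15 mitochondrial genes summed to 215 to 232 TPM. In 12 of 15 pairs of namesakes the cytosolic gene was higher in every one of the 16 libraries, the exceptions being Iars, Lars and Tars. Farsa and Farsb were each paired with Fars2. Tars was below Tars2 only in WT inflamed replicate 2, at a ratio of 0.557, and its lowest steady-state ratio was 1.05.

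**Figure D1:**
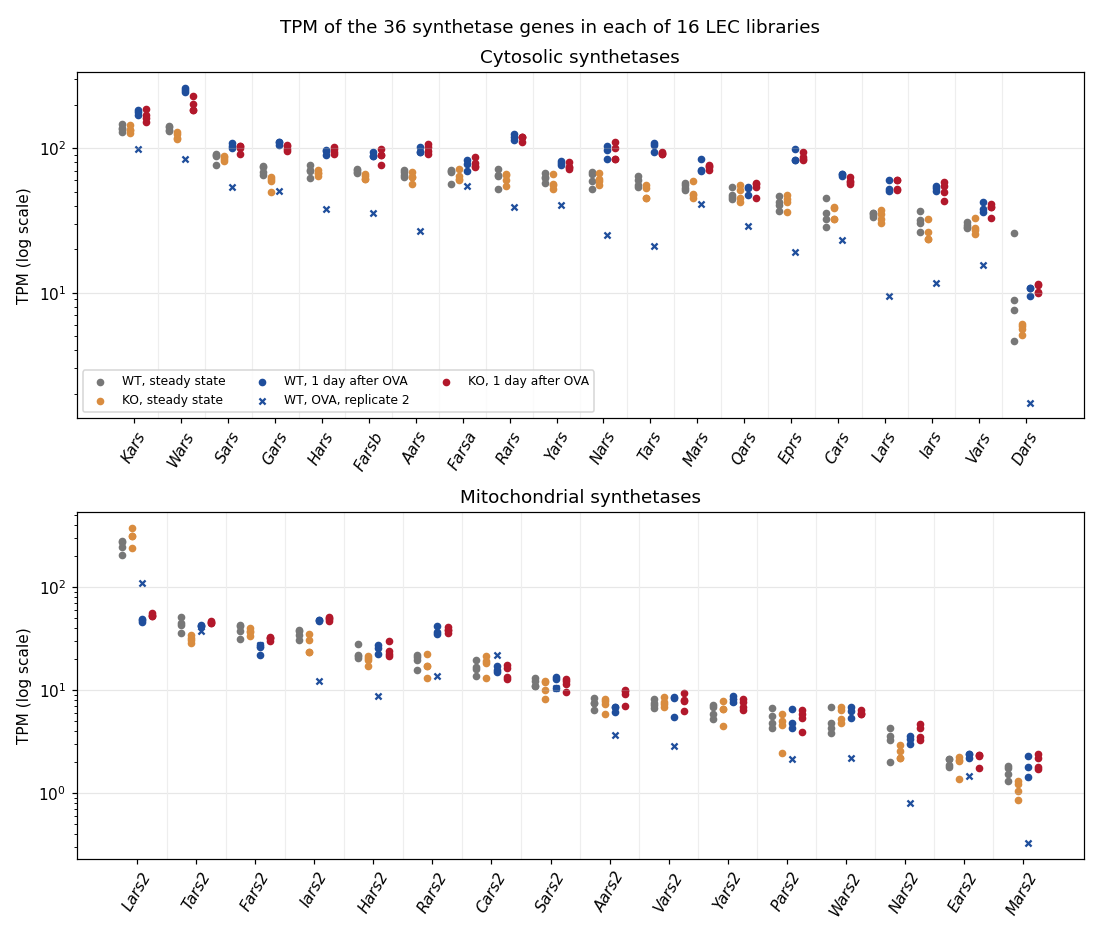
Level of each synthetase gene in TPM on a log axis, with 1 point for each of 16 libraries, cytosolic genes above and mitochondrial genes below, ordered by their mean in WT LECs. After OVA most cytosolic genes lay above both steady-state groups except in WT inflamed replicate 2 (cross), and Lars2 lay below them.

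Wars, which charges tryptophan, had the highest mean of the cytosolic genes over 16 libraries. It stood at 132, 139.7, 141 and 133 TPM in WT LECs and at 129, 116, 117 and 126 TPM in KO LECs. Kars, which charges lysine, was level with it in WT LECs at 129.9 to 147 TPM, and these ranges overlapped. All other cytosolic genes were below 92 TPM in every steady-state library.

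Dars, for aspartate, was the lowest cytosolic gene in the mean and also the most uneven. Its 4 WT libraries held 7.54, 25.8, 4.67 and 8.85 TPM, and its 4 KO libraries 5.07, 6.11, 5.9 and 5.58 TPM. A single WT library, replicate 2, was far above the rest, and the groups overlapped.

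Among the mitochondrial genes Mars2, for methionine, was lowest. It stood at 1.82, 1.31, 1.75 and 1.52 TPM in WT LECs and at 1.31, 0.849, 1.05 and 1.24 TPM in KO LECs, so that it lay close to the minimum of 1 TPM. Mars2 reached this minimum in 14 libraries, Nars2 in 15, and each other synthetase gene in all 16. Lars2, for leucine, was at 273, 281, 249 and 204 TPM in WT LECs and at 315, 318, 239 and 377 TPM in KO LECs. The next mitochondrial genes in the order, Tars2, Fars2 and Iars2, had overlapping WT ranges of 36.3 to 51.4, 31.5 to 43.1 and 30.6 to 38.2 TPM.

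Promoter sequence was searched because ATF4 is known to bind an amino acid response element at several cytosolic synthetase genes. Its core was taken as TGATGNAA on either strand, and each window ran from 250 bases before to 50 bases after the RefSeq start (GRCm38.p6). Windows of 27 synthetase genes could be searched, 13 cytosolic and 14 mitochondrial. The core was found in 5 of the 13 cytosolic windows (Aars, Gars, Iars, Tars and Yars) and in 0 of the 14 mitochondrial windows, and 3.97% of 32851 mouse promoter windows held it. The stretches below show each match in capitals, which reads TTGCATCA or TTTCATCA where the core lies on the opposite strand. They are given 5′ to 3′ on the strand of the gene, and the distance is that from the start to the first base of the match.

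Aars, chr8:111033690-111033789, plus strand, match 112 bases before the start: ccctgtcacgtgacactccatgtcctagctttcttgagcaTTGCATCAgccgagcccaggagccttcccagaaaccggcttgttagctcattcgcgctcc
Aars, chr8:111033841-111033868, plus strand, match 9 bases after the start: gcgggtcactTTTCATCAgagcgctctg
Gars, chr6:55037901-55038000, plus strand, match 30 bases before the start: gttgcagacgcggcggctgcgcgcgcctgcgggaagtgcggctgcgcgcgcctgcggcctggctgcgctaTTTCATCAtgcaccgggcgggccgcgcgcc
Iars, chr13:49682127-49682154, plus strand, match 7 bases after the start: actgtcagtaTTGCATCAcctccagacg
Tars, chr15:11399659-11399758, minus strand, match 15 bases before the start: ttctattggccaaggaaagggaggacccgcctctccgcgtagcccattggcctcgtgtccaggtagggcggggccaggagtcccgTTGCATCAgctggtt
Yars, chr4:129189896-129189923, plus strand, match 3 bases after the start: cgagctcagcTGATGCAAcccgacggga

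The other motifs searched belong to interferon signalling. The gamma-activated site TTCNNNGAA was in the windows of Aars, Kars and Nars2 and in 8.3% of all windows, and the interferon element, taken as GAAA followed by any 2 bases and GAAA again, was in that of Qars and in 3.44% of all windows. No window of Wars was searched. A match is a run of letters and not a measured binding site.

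Loss of Clever-1 at steady state came first among the comparisons. No synthetase gene passed the test in KO against WT LECs. The test was limma on log2(TPM + 1) with Benjamini-Hochberg adjustment over all 12684 genes and a threshold of 0.05, and it called 0.867% of all genes higher and 0.662% lower in KO LECs. Without adjustment 5 of the 36 genes had a p under 0.05, beside 1460 of all 12684 genes. The log2 fold changes of all 36 ran from -0.68 for Dars to 0.3 for Lars2, with a median of -0.05 beside -0.04 for all genes. Of the 36 genes 8 were above 0, beside 5078 of all 12684 genes.

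**Figure D2:**
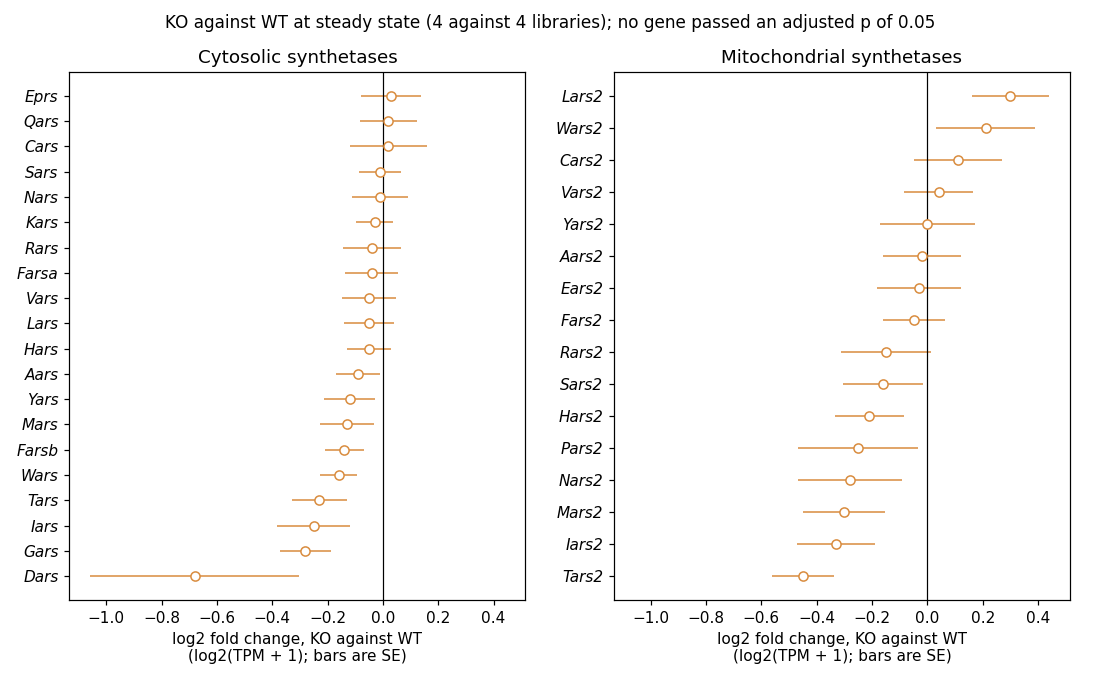
Log2 fold change of each synthetase gene in KO against WT LECs at steady state, on the log2(TPM + 1) scale, with its standard error over 4 libraries a group. Most genes lay between -0.3 and 0.3, and Dars and Tars2 lay lowest, at -0.68 and -0.45.

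Tars2, which charges threonine in mitochondria and was chosen here after its values were seen, had the second lowest of these changes. Its WT libraries stood at 36.3, 44.7, 51.4 and 43.4 TPM and its KO libraries at 30.7, 29.1, 34.7 and 32.4 TPM. Every KO library was below every WT library. The log2 difference was -0.45 (SE 0.113), with an adjusted p of 0.101 in limma over 8 libraries. Fitted over 15 libraries, all but WT inflamed replicate 2, the same difference passed at an adjusted p of 0.015.

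Gars, Farsb and Wars likewise had KO values below all WT values, which makes 4 of 36 genes beside 3.74% of all genes tested, and in 0 of 36 genes did KO lie above WT without overlap, beside 2.76%. Gars, for glycine, was at 65.0 to 74.9 TPM in WT and at 49.7 to 62.9 TPM in KO LECs (log2 difference -0.28, adjusted p 0.259 in limma). The Dars difference of -0.68 (SE 0.378) became -0.23 without WT replicate 2. Markers of other cells and of cell handling also differed at steady state. Summed TPM of 7 markers of blood endothelium and high endothelial venules ranged from 1948 to 2566 in WT and from 4008 to 5382 in KO LECs, with Glycam1 passing (log2 1.09), and 4 B cell markers summed to 66.2 to 91.0 and 112 to 125 TPM, with Cd79a and Cd79b passing. Of 2 tested neutrophil markers S100a9 was higher in KO LECs (log2 1.94), and the 6 listed summed to 3.87 to 37.4 TPM in WT and 27.5 to 66.4 TPM in KO LECs. Of 17 immediate early and dissociation genes 2, Fosb and Ier3, were higher (log2 0.60 and 0.43), and 14 were above 0, beside 5078 of all 12684 genes. Whether these differences had a part in any synthetase value was not tested, and in sorted bulk cells fewer cells of a type and less RNA per cell cannot be told apart.

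After OVA the cytosolic synthetases rose together in KO LECs. Of the 20 cytosolic genes 19 passed the test as higher in KO inflamed than in KO LECs, by 0.22 to 1.02 on the log2(TPM + 1) scale, and Qars, for glutamine, did not (0.13, adjusted p 0.326 in limma). Of the 16 mitochondrial genes 6 rose, 2 fell and 8 did not pass. Together 25 of 36 genes rose and 2 fell, in a comparison in which limma called 42.3% of all genes higher and 16.2% lower. In 25 genes every KO inflamed value was above every KO value, beside 38.4% of all genes, and in 2 genes below, beside 14.3%. Where the log2 change also had to reach 1 in either direction, Eprs and Rars2 rose and Lars2 fell, beside 6.2% of all genes higher and 3.1% lower. The median log2 fold change was 0.63 for the cytosolic genes, 0.22 for the mitochondrial genes and 0.23 for all genes tested.

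That shift of all genes depends on the scale of TPM. When each library was rescaled by the median ratio of its genes, the median of all genes became 0.01. The cytosolic genes then had a median of 0.38 with 13 of 20 higher and 0 lower, and the mitochondrial genes a median of -0.01 with 3 higher and 3 lower, beside 26% of all genes higher. Of all called genes 72.3% were higher on the TPM scale and 48.8% after rescaling. The share of all genes lower after rescaling was thus slightly above the 26% that were higher. Sars, for serine, rose by 0.22 on the TPM scale and was at -0.04 after rescaling, with an adjusted p of 0.66 in limma. It was the only synthetase gene called in KO LECs whose sign turned under this rescaling.

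In WT LECs the same comparison hung on 1 library. With all 8 libraries 0 of 36 synthetase genes passed as higher and only Lars2 passed as lower. Of all genes 2.51% were higher and 2.73% lower in that comparison. An unadjusted p under 0.05 was found for 2 of 36, beside 2227 of all 12684 genes. Without WT inflamed replicate 2, 17 of 20 cytosolic genes rose, 2 of 16 mitochondrial genes rose and 2 fell, beside 27% of all genes higher and 12.9% lower. The median log2 fold change was then 0.49 for cytosolic genes, 0.04 for mitochondrial genes and 0.17 for all genes. The groups did not overlap for 21 higher and 2 lower genes, beside 30.6% and 14.9% of all genes. With replicate 2 only Yars2 was higher and only Lars2 and Fars2 were lower without overlap, beside 5.22% and 8.7% of all genes. Dars (0.09), Farsa (0.21) and Qars (0.10) were the cytosolic genes that did not pass.

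The libraries of the genotypes are separate, so the calls can be set beside each other. All 17 cytosolic genes that rose in WT LECs without replicate 2 were among the 19 that rose in KO LECs. With 19 of 20 cytosolic genes called in KO LECs, this overlap was nearly set beforehand. The share of all genes called higher in both genotypes was not counted. After rescaling by the median ratio, 10 cytosolic genes were called higher in both genotypes, out of 10 in WT without replicate 2 and 13 in KO LECs. They were Aars, Cars, Eprs, Gars, Iars, Lars, Nars, Rars, Tars and Wars. The share of all genes higher after this rescaling was given above for KO LECs only, so the WT and shared counts stand without one. Rars2 was the only mitochondrial gene higher in both after this rescaling, and Lars2 and Fars2 were lower in both. With replicate 2 Lars2, as lower, was the only synthetase gene called in WT LECs after this rescaling (adjusted p 0.0307 in limma).

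**Figure D3:**
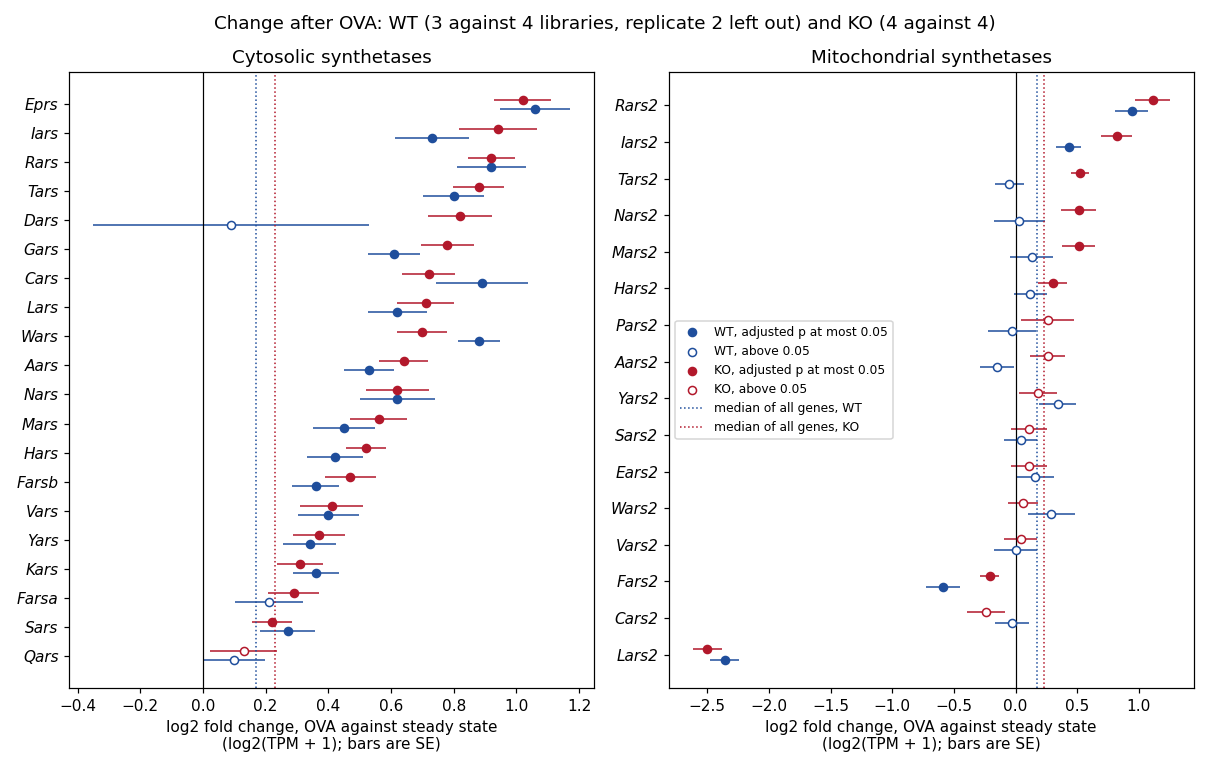
Log2 fold change of each synthetase gene after OVA, on the log2(TPM + 1) scale with standard errors, for WT LECs without replicate 2 (blue, 3 against 4 libraries) and KO LECs (red, 4 against 4); filled points passed an adjusted p of 0.05 and dotted lines mark the median of all genes. Eprs and Rars2 had the largest rises in both genotypes and Lars2 the largest fall.

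Eprs, which charges both glutamate and proline as part of the multisynthetase complex, had the largest rise of the cytosolic genes in both genotypes. It stood at 42.1, 40.5, 37.0 and 46.8 TPM in WT and at 99.3, 19.0, 82.3 and 82.2 TPM in WT inflamed LECs, the low value being replicate 2. In KO LECs it went from 42.1, 44.3, 47.5 and 36 TPM to 84.2, 82.6, 86.3 and 94.1 TPM. Apart from WT inflamed replicate 2, every inflamed library was above every steady-state library. The log2 fold change was 1.02 (SE 0.091, adjusted p 1.55e-05 in limma) in KO LECs, 1.06 (SE 0.111, adjusted p 0.000169) in WT LECs without replicate 2, and 0.53 (adjusted p 0.7) with it.

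Rars, the arginine enzyme of the same complex, was also among the genes that rose most. WT LECs held 71.3, 64.3, 52.6 and 65.5 TPM and WT inflamed LECs 114, 39.5, 120.04 and 125 TPM. KO LECs held 60.4, 64.8, 66.5 and 54.9 TPM and KO inflamed LECs 119.8, 109.98, 119 and 119 TPM. The inflamed libraries again lay above all steady-state libraries except for WT inflamed replicate 2, and the log2 fold change was 0.92 in KO LECs (SE 0.074), 0.92 in WT LECs without replicate 2 (SE 0.109) and 0.52 with it, where it did not pass (adjusted p 0.555 in limma).

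Iars, for isoleucine, also belongs to the complex. It stood at 26.2, 23.6, 32.3 and 23.5 TPM in KO and at 58.4, 54.8, 43.1 and 49.7 TPM in KO inflamed LECs. In WT LECs it was at 30.6, 32, 26.4 and 36.9 TPM and after OVA at 52.8, 11.6, 54.5 and 50.5 TPM. The groups did not overlap in KO LECs, nor in WT LECs without replicate 2, and the log2 fold changes were 0.94 (SE 0.124) and 0.73 (SE 0.119). With replicate 2 the WT value was 0.21 and did not pass (adjusted p 0.934 in limma). Iars was also 1 of the 5 genes with the response element core shown above.

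Of the 8 complex enzymes (Dars, Eprs, Iars, Kars, Lars, Mars, Qars and Rars) 7 rose in KO LECs, with a median log2 fold change of 0.76, and 12 of 12 cytosolic enzymes outside it rose, with a median of 0.57, beside 42.3% of all genes and a median of 0.23. In WT LECs without replicate 2 the counts were 6 of 8 and 11 of 12, with medians of 0.54 and 0.48, beside 27% and 0.17 for all genes. With all WT libraries they were 0 of 8 and 0 of 12 in limma, with medians of 0.18 and 0.10, beside 2.51% and -0.03 for all genes. Of the 20 cytosolic genes 0 had an unadjusted p under 0.05 there, beside 2227 of all 12684 genes. Kars had the smallest change of the complex enzymes that rose in KO LECs, at 0.31. After rescaling by the median ratio Kars (0.05) no longer passed in KO LECs. Nor did Farsa (0.04), Farsb (0.22), Sars (-0.04), Vars (0.16) and Yars (0.12), all outside the complex. Which set had the larger share that rose thus depended on the scale. Of the scaffold genes Aimp1 (log2 -0.08) and Aimp2 (0.21) did not pass in KO LECs, and Eef1e1 rose by 0.42. In WT LECs without replicate 2, 0 of the 3 passed in limma. An unadjusted p under 0.05 was found there for 1 of them, beside 6226 of all 12684 genes.

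Outside the complex Tars, for threonine, was among the genes that rose most. It stood at 45.0, 45.4, 52.9 and 55.9 TPM in KO and at 91.9, 94.0, 90.4 and 91.3 TPM in KO inflamed LECs. WT LECs held 55.4, 60.5, 53.7 and 64.3 TPM, and WT inflamed LECs 109, 20.9, 93.5 and 105 TPM. Except for WT inflamed replicate 2 the groups were far apart, with a log2 fold change of 0.88 (SE 0.081) in KO and of 0.80 (SE 0.097) in WT LECs without replicate 2. With it the WT value was 0.24 and did not pass (adjusted p 0.923 in limma).

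Cars, for cysteine, went from 28.4, 45.5, 35.7 and 32.2 TPM in WT LECs to 66.5, 23.3, 63.8 and 66.8 TPM. In KO LECs it went from 38.3, 32.5, 32.6 and 39.0 TPM to 63.5, 58.6, 56.2 and 59.1 TPM. Without WT inflamed replicate 2 neither pair of groups overlapped, and the log2 fold changes were 0.89 (SE 0.148) and 0.72 (SE 0.085). With that library the WT value was 0.53 and did not pass (adjusted p 0.535 in limma).

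Wars rose from its already high level. In WT inflamed LECs it stood at 245, 83.7, 252 and 262 TPM, and in KO inflamed LECs at 228, 184, 200.5 and 184 TPM. All of these but WT inflamed replicate 2 were above the 116 to 141 TPM of the steady-state libraries. The log2 fold change was 0.88 in WT LECs without replicate 2 (SE 0.068, adjusted p 3.98e-05 in limma) and 0.70 in KO LECs (SE 0.08, adjusted p 6.31e-05). With replicate 2 the WT value was 0.49 (adjusted p 0.575).

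Among the genes of smaller change, Farsa and Farsb, which encode the alpha and beta chains of the same phenylalanine enzyme, rose by 0.29 and 0.47 in KO LECs. Gars rose by 0.78, Lars by 0.71, Aars by 0.64, Nars by 0.62, Mars by 0.56 and Hars by 0.52, and Vars, Yars, Kars and Sars by 0.41, 0.37, 0.31 and 0.22. Dars rose by 0.82 in KO LECs, from 5.07 to 6.11 TPM up to 9.98 to 11.4 TPM. In WT LECs, where replicate 2 held 25.8 TPM, its inflamed libraries stood at 10.8, 1.74, 9.52 and 10.7 TPM and the groups overlapped (log2 -0.42 with WT inflamed replicate 2 and 0.09 without it). The 5 genes with the response element core changed by 0.37 (Yars) to 0.94 (Iars) in KO LECs. The searched cytosolic genes without it (Dars, Eprs, Farsa, Farsb, Kars, Mars, Qars and Sars) changed by 0.13 (Qars) to 1.02 (Eprs). Windows of the remaining cytosolic genes were not searched, and whether the core had a part in any change was not tested.

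Summed over all 20 cytosolic genes, TPM went from 1236 ± 38.3 (SD, n = 4) in WT to 1832 ± 61.7 (SD, n = 3) in WT inflamed LECs without replicate 2, which alone summed to 718 TPM. In KO LECs the sum went from 1159 ± 30.7 (SD, n = 4) to 1737 ± 78.1 (SD, n = 4). That is 1.48 times and 1.5 times the steady-state sum. For the 15 mitochondrial genes other than Lars2 the ratios were 1.09 and 1.3, from 227 ± 8.12 to 248 ± 4.06 TPM in WT LECs without replicate 2 and from 200.3 ± 21.8 to 261 ± 10 TPM in KO LECs. With Lars2 included the mitochondrial sum went the other way, to 0.617 and 0.614 of the steady-state sum.

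**Figure D4:**
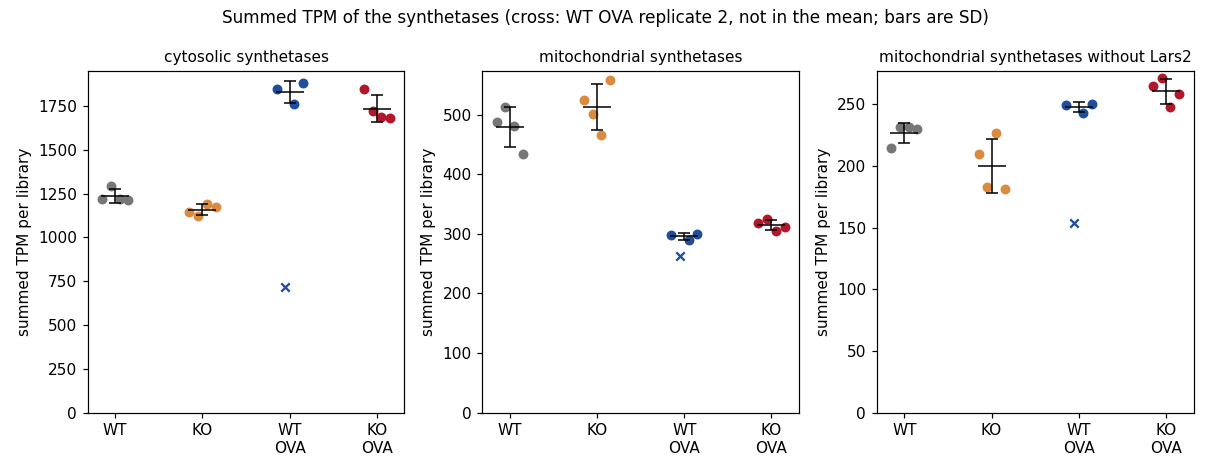
Summed TPM per library of the 20 cytosolic genes, the 16 mitochondrial genes and the 15 mitochondrial genes other than Lars2, with mean and SD of each group; the cross is WT inflamed replicate 2, which is left out of its group's mean. The cytosolic sum was higher after OVA in every other library, and the mitochondrial sum was lower with Lars2 and higher without it.

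Mitochondrial synthetases moved in both directions. Rars2, for arginine, rose most and followed its cytosolic namesake Rars. It went from 17.3, 17.2, 22.7 and 13.2 TPM in KO LECs to 38.6, 38.2, 35.9 and 41.6 TPM, and from 21.9, 19.5, 15.8 and 20.9 TPM in WT LECs to 42.2, 13.8, 35.3 and 37.0 TPM. Only WT inflamed replicate 2 was within the steady-state range, and the log2 fold change was 1.11 (SE 0.139) in KO LECs, 0.94 (SE 0.133) in WT LECs without replicate 2 and 0.59 with it, where it did not pass (adjusted p 0.441 in limma). Rars2 overlaps Orc3 in RefSeq, and a library kit that does not mark strand cannot tell their reads apart in the shared stretch. The same limit holds for other synthetase genes, among them Aars (with Ddx19b), Farsb (Sgpp2), Iars2 (Rab3gap2) and Wars (Wdr25), while Hars and Hars2 overlap each other.

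Iars2, for isoleucine, also rose in both genotypes, by 0.82 in KO LECs and by 0.43 in WT LECs without replicate 2. With that replicate, at 12.4 TPM beside 46.8 to 48.1 TPM in the other 3, its WT change was -0.03. Tars2, Mars2, Nars2 and Hars2 rose in KO LECs by 0.52, 0.51, 0.51 and 0.30 and did not pass in WT LECs, with values of -0.05, 0.13, 0.03 and 0.12 without replicate 2. Whether these responses differed was tested as the interaction of genotype and OVA. Tars2 had the lowest adjusted p of the 36 genes without replicate 2, 0.268 in limma, with a log2 difference of 0.56. Its steady-state means were 43.9 TPM in WT and 31.7 TPM in KO LECs. After OVA, without replicate 2, they were 42.2 and 45.7 TPM. The difference in response thus includes the steady-state gap of Tars2, which was picked after its values were seen. After rescaling by the median ratio Mars2, Nars2 and Hars2 no longer passed in KO LECs (adjusted p 0.0533, 0.0635 and 0.636 in limma). Under the same rescaling Iars2 did not pass in WT LECs without replicate 2 (log2 0.24, adjusted p 0.114 in limma).

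Mars2, the lowest gene, stood at 2.29, 0.327, 1.81 and 1.44 TPM in WT inflamed and at 1.78, 1.71, 2.38 and 2.19 TPM in KO inflamed LECs. All KO inflamed libraries were above all KO libraries, which ranged from 0.849 to 1.31 TPM, while the WT groups overlapped. Values this close to 1 TPM are compressed by the added 1, so that its log2 fold change of 0.51 understates the change in TPM.

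Aars2, Ears2, Pars2, Sars2, Vars2, Wars2, Yars2 and Cars2 did not pass in either genotype. Their log2 fold changes ranged from -0.24 (Cars2) to 0.26 (Aars2 and Pars2) in KO LECs and from -0.15 (Aars2) to 0.34 (Yars2) in WT LECs without replicate 2. After rescaling by the median ratio Cars2 did pass as lower in KO LECs (log2 -0.48, adjusted p 0.0146 in limma). Fars2, for phenylalanine and chosen here after its values were seen, fell in both genotypes. Its WT libraries held 43.1, 42.2, 38.0 and 31.5 TPM and its WT inflamed libraries 27.4, 27.3, 22.1 and 26.2 TPM. The WT groups did not overlap even with replicate 2, and the log2 fold change was -0.59 (adjusted p 0.00854 in limma) without it and -0.56 (adjusted p 0.107) with it. In KO LECs Fars2 went from 33.7 to 40.4 TPM down to 30.4 to 32.9 TPM (-0.21, adjusted p 0.0359), a call that was lost on leaving out any 1 of 7 of the 8 libraries, KO replicate 4 being the exception.

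Lars2 had the largest change of all 36 genes. After OVA it stood at 47.6, 109, 46.1 and 49.6 TPM in WT LECs and at 52.8, 53.6, 56.8 and 52.2 TPM in KO LECs. Every inflamed library, WT inflamed replicate 2 included, was below the lowest steady-state library at 204 TPM. The log2 fold change was -2.5 in KO LECs (SE 0.118, adjusted p 8.63e-07 in limma), -2.36 in WT LECs without replicate 2 (SE 0.115, adjusted p 5.37e-06) and -2.07 with it (SE 0.28, adjusted p 0.00488). The cytosolic Lars, which was below Lars2 by a ratio of 0.122 to 0.175 in WT LECs, was at 1.05 to 1.26 times Lars2 in WT inflamed LECs without replicate 2.

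Another listed gene moved in the same direction as Lars2 after OVA. Rn45s, the 45S precursor of ribosomal RNA, was picked after its values were seen and stood at 74.9 to 109 TPM in WT, 95.1 to 140 TPM in KO, 14.1 to 19.1 TPM in WT inflamed without replicate 2, and 16.9 to 24.3 TPM in KO inflamed LECs. In WT inflamed replicate 2 it was at 69.2 TPM. Lars2 was 2.28 to 2.89 times Rn45s in the 8 steady-state libraries, 2.17 to 3.53 times in the 7 other inflamed libraries and 1.58 times in WT inflamed replicate 2. The log2 fold change of Rn45s was -2.46 in KO LECs and -2.44 in WT LECs without replicate 2 (adjusted p 1.61e-06 and 1.47e-05 in limma), and -1.94 with that replicate. Whether reads of ribosomal RNA were counted under Lars2 was not tested, and both changes are on the same TPM scale as the other genes.

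**Figure D5:**
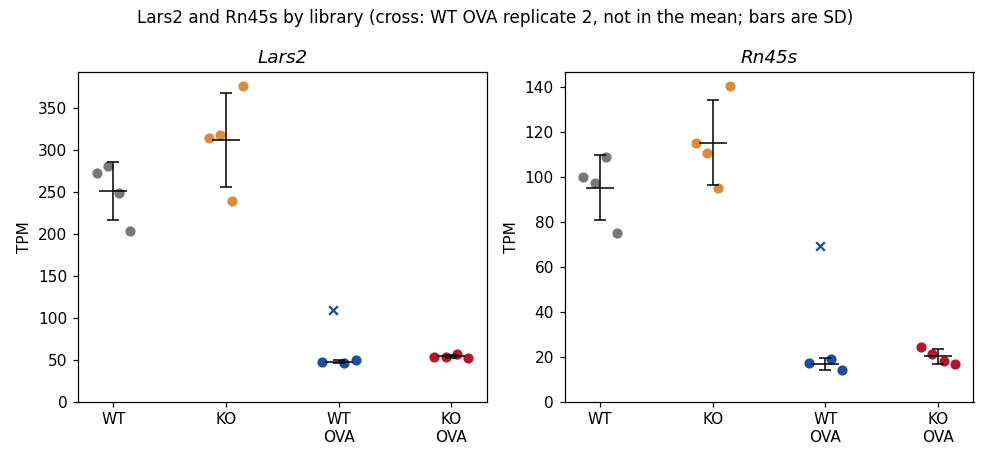
TPM of Lars2 and of Rn45s in each library, with mean and SD of each group; the cross is WT inflamed replicate 2, which is left out of its group's mean. Both genes were lower after OVA in both genotypes, and WT inflamed replicate 2 was the highest inflamed library for both, at 109 and 69.2 TPM.

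Genes that share a pathway with the synthetases were counted in the same fits. Beside these counts, 42.3% of all genes were higher and 16.2% lower in KO LECs (median 0.23), and 27% were higher and 12.9% lower in WT LECs without replicate 2 (median 0.17). With all WT libraries 2.51% were higher and 2.73% lower (median -0.03), and 2227 of 12684 had an unadjusted p under 0.05. Of 18 tested targets of the amino acid response outside the synthetases 12 rose and 0 fell in KO LECs, with a median log2 fold change of 0.43. In WT LECs without replicate 2 the counts were 9 and 0, with a median of 0.44, and with all libraries 3 and 0. Mthfd2, of mitochondrial one-carbon metabolism, rose by 1.86 in KO LECs, the serine synthesis enzyme Psat1 by 1.65, the amino acid transporter Slc38a2 by 1.07, and the alanine aminotransferase Gpt2 by 0.84. After rescaling by the median ratio 7 of 18 were higher and 2 lower in KO LECs, beside 26% of all genes higher and a slightly larger share lower. Mthfd2 stood at 2.37 to 4.21 TPM in KO and at 11.5 to 17.3 TPM in KO inflamed LECs, without overlap.

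The 15 genes listed for the integrated stress response did not move as one group. Of these 15 genes 9 rose and 4 fell in KO LECs (median 0.53), and 8 rose and 1 fell in WT LECs without replicate 2 (median 0.49). With all WT libraries 1 rose and 0 fell (median 0.02). The kinases PKR (Eif2ak2, 1.19) and GCN2 (Eif2ak4, 0.92) and their substrate Eif2s1 (0.99) rose in KO LECs, and the transcription factor Atf5 fell by 0.92. Atf4 and Ddit3 were picked after their values were seen. Atf4 was at 519 to 566 TPM in KO and at 439 to 548 TPM in KO inflamed LECs, and its log2 fold change of -0.18 did not pass (adjusted p 0.0619 in limma). Ddit3, which overlaps the rising Mars in RefSeq, fell by 0.61 in KO LECs.

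Of 15 tested interferon-gamma response genes 11 rose and 2 fell in KO LECs (median 1.14), and 12 rose and 0 fell in WT LECs without replicate 2 (median 1.67). With all WT libraries 3 rose and 0 fell (median 1.16). The guanylate-binding proteins Gbp4, Gbp7 and Gbp5, which act against intracellular microbes, rose by 2.06, 1.86 and 1.79 in KO LECs. The median of all genes was 0.23 and 0.17 in these comparisons. Gbp4 was at 17.3 to 21.5 TPM in KO and at 50.7 to 114 TPM in KO inflamed LECs.

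The other genes of tRNA charging changed less uniformly. Of 11, 6 rose and 2 fell in KO LECs, and 2 rose and 3 fell in WT LECs without replicate 2. With all WT libraries 0 rose and 0 fell in limma, and 1 had an unadjusted p under 0.05. Qrsl1, a subunit of the enzyme that makes mitochondrial glutaminyl-tRNA, rose by 0.72 in KO LECs, Sepsecs, of selenocysteine synthesis, by 0.71, the tRNA exporter Xpot by 0.68, and Mtfmt, which formylates mitochondrial initiator tRNA, by 0.52. Of 15 cytosolic elongation and initiation factors 8 rose and 4 fell in KO LECs (median 0.23, as for all genes), of 10 mitochondrial translation factors 4 rose and 1 fell, and of 16 genes of Myc and ribosome biogenesis 11 rose and 0 fell (median 0.40). In WT LECs without replicate 2 these counts were 6 and 4, 2 and 0, and 5 and 0. With all WT libraries they were 1 and 2, 0 and 0, and 0 and 0 in limma, with 4, 0 and 0 genes at an unadjusted p under 0.05.

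Markers of cell types and cell states differed after OVA as well. Of all genes 42.3% were higher and 16.2% lower in KO LECs, and 27% and 12.9% in WT LECs without replicate 2. With all WT libraries 2.51% were higher and 2.73% lower, and 2227 of 12684 genes had an unadjusted p under 0.05. All 15 cell cycle genes rose in both genotypes without WT inflamed replicate 2, their summed TPM going from 229 to 256 in WT to 534 to 653, and from 223 to 264 in KO to 508 to 623. With that replicate, at a sum of 275 TPM, 9 of 15 rose in WT LECs. Summed TPM of 8 LEC markers went from 2376 to 3080 in WT to 4956 to 5708 without replicate 2, and from 2382 to 2738 in KO to 5606 to 6630. Of the 7 tested 6 rose in KO LECs and 6 in WT LECs without replicate 2, and 0 with it in limma, where 3 had an unadjusted p under 0.05. Macrophage and monocyte markers went down, with 4 of 5 falling in KO LECs and sums of 269 to 419 TPM before and 83.5 to 129.7 TPM after OVA, and 5 of 5 falling in WT LECs without replicate 2, from 318 to 914 TPM down to 58.1 to 82.7 TPM (3 of 5 with it). T cell markers fell in 4 of 4 tested genes in KO LECs, with sums of 150.3 to 191 TPM before and 92.4 to 123 TPM after OVA, and in 2 of 4 in WT LECs without replicate 2. B cell markers fell in 4 of 4 genes in KO LECs, with sums of 112 to 125 TPM before and 52.9 to 71.1 TPM after, and in 1 of 4 in WT LECs without replicate 2. Markers of blood endothelium and high endothelial venules fell in 3 of 7 genes in KO LECs, with sums of 4008 to 5382 TPM before and 1634 to 3334 TPM after OVA. In WT LECs without replicate 2, 1 of these 7 rose and 1 fell, and the sums of 1948 to 2566 TPM before and 1240 to 2959 TPM after overlapped. Both tested neutrophil markers fell in KO LECs, where the 6 listed summed to 27.5 to 66.4 TPM before and 0.46 to 15.7 TPM after. In WT LECs without replicate 2, 0 of 2 passed, and sums of 3.87 to 37.4 TPM before and 1.48 to 22.3 TPM after overlapped. The pan-leukocyte gene Ptprc fell in KO LECs (log2 -0.63), where its values of 0.423 to 1.84 TPM lay near the minimum of 1 TPM. It did not pass in WT LECs without replicate 2 (log2 -0.16). Of 6 fibroblastic reticular cell markers 3 rose and 1 fell in KO LECs, and 2 rose and 0 fell in WT LECs without replicate 2. Of 17 genes known to respond to tissue dissociation 12 fell and 1 rose in KO LECs, and 9 fell and 2 rose in WT LECs without replicate 2 (5 and 0 with it). The part of these differences in the synthetase values was not tested.

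Between the genotypes after OVA no synthetase gene passed in limma. KO inflamed against WT inflamed LECs gave 0 of 36 genes higher and 0 lower with all 8 libraries, beside 0.15% and 0.118% of all genes, and likewise 0 and 0 without replicate 2, beside 0.457% and 0.473%. Unadjusted p was under 0.05 for 1 gene with all libraries, beside 592 of all 12684 genes. Without replicate 2 it was under 0.05 for 4 of 36, beside 1393 of all 12684 genes. The median log2 difference of the 36 genes was 0.29 with all libraries, where all genes had 0.19, and -0.01 without replicate 2, where all genes had 0.02. With all libraries Aars2, Fars2 and Tars2 were higher in KO inflamed LECs without overlap and 0 of 36 lower, beside 3.96% and 1.32% of all genes. Without replicate 2 Aars2, Fars2, Lars2 and Tars2 were higher and Cars and Wars lower without overlap, beside 5.5% and 4.83%. Wars differed most among the cytosolic genes without replicate 2, with KO inflamed values of 184 to 228 TPM all below the other 3 WT inflamed values of 245 to 262 TPM (log2 difference -0.35, SE 0.085, adjusted p 0.15).

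In the interaction of genotype and OVA 0 of 36 genes passed in either direction, beside 0% of all genes with all 16 libraries. Without replicate 2 the counts were again 0 and 0. Beside them 0.0473% of all genes had a positive and 0.00788% a negative difference, taken as the KO change minus the WT change. The unadjusted p was under 0.05 for 2 of 36 genes with all 16 libraries, beside 542 of all 12684 genes. Without replicate 2 it was under 0.05 for 3 of 36, beside 902 of all 12684 genes. These tests do not show that the genotypes responded alike: without replicate 2 the standard error of the log2 difference in response was 0.143 for Eprs, 0.129 for Rars and 0.46 for Dars.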

How the data were processed

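RNA of sorted LECs was made into 16 libraries with SMART-Seq v4 and Nextera XT, which do not mark strand. The deposited values are TPM, calculated by the authors. The study's methods name STAR and salmon with mm10 and RefSeq genes, and the submitters' processing notes name STAR 2.5.2b, Subread and limma. TPM keep no depth, so the depth is unknown, no counting interval was given, and precision rests on the spread of 4 libraries a group, which may be partly technical. The series text speaks of triplicates, but 4 libraries a group were analysed. The deposited tables of changed genes hold the authors' fold changes and p-values and were not used. The 3 TPM tables repeat 8 columns with 0 differing values, and 26 names turned into dates were dropped from each.

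Genes that reached 1 TPM in 4 or more of the 16 libraries were tested on log2(TPM + 1) with limma 3.58.1 (lmFit, eBayes with trend) in R 4.3.3, with Benjamini-Hochberg adjustment over all 12684 genes. A gene was said to rise or fall at an adjusted p of at most 0.05. Each comparison used its own libraries and the interaction all 16. Fold changes on this scale understate changes of low genes. Python 3.11.15 was used for descriptions and matplotlib 3.10.9 for figures. RefSeq genes on GRCm38.p6 gave overlaps and promoters. All 36 symbols matched, and 16 genes overlap another gene.

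The members and gene lists were chosen with earlier results of these data known. Full values were to be given for members that passed among the 6 largest changes of each comparison and for the highest and lowest member of each compartment, and up to 4 genes that passed were named from each related list. Alternatives were pseudocounts of 0.1 and 5 TPM, no minimum, 5 TPM, or 1 TPM within a comparison, quantile normalization, median ratio rescaling, array weights, eBayes without its trend, a replicate block, a fit over all libraries, a fold change of at least 1 on the log2 scale, and leaving out each library. A fit over 15 libraries, and rescaling or a block without WT inflamed replicate 2, were added after the data were seen. The flow cytometry and imaging of the study were not analysed here.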

Additional observations from a re-analysis of the deposited data

Results flagged for a closer look

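The values of the 36 genes were checked in all 4 groups, 144 sets of 4 libraries, for a library whose gap to the others exceeded Dixon's critical value at the 95% level. Chance flags about 1 in 20 such sets, and 17 exceeded it. Of these 14 were in WT inflamed replicate 2, 12 of them cytosolic genes. There Aars stood at 26.7 TPM (the other 3 libraries at 93.7 to 102), Cars at 23.3, Dars at 1.74, Farsb at 35.6, Gars at 50.4, Hars at 38.0 and Iars at 11.6 TPM. Kars stood at 98.04, Rars at 39.5, Sars at 54.3, Wars at 83.7 and Yars at 40.5 TPM in the same library, all below the rest of the group. Of the mitochondrial genes Iars2 was low there at 12.4 TPM, and Lars2 was high at 109 TPM against 46.1 to 49.6 TPM in the other 3. Outside that library, Farsa was low in WT replicate 4 at 56.4 TPM (others 68.5 to 70.6), Rars in KO inflamed replicate 2 at 109.98 TPM (others 119 to 119.8), and Ears2 in KO inflamed replicate 3 at 1.75 TPM (others 2.27 to 2.34).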

How the results depend on the processing

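In KO against WT LECs at steady state 0 genes passed under every setting but the fit over 15 libraries, in which 1 gene, Tars2, was lower. In WT inflamed against WT LECs the count of higher genes was 0 with all libraries and 19 with array weights, 19 without WT inflamed replicate 2, 19 in the fit over 15 libraries and 11 after rescaling by the median ratio without that replicate, and leaving out any 1 library gave 0 to 19. The count of lower genes there was 1, and 2 with array weights, in the fits over 16 and 15 libraries, without that replicate and when rescaled without it (1 to 2 on leaving out 1 library). Iars2 went from -0.03 to 0.45 with array weights and to 0.43 without that replicate or over 15 libraries (-0.19 to 0.43 on leaving out 1 library).

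In KO inflamed against KO LECs, where 25 genes were higher, 16 were after rescaling by the median ratio, 19 after quantile normalization (13 in WT LECs without replicate 2), 5 in the fit over all 16 libraries, which shares the spread of WT inflamed replicate 2, 25 in the fit over 15 libraries, and 2 with a log2 fold change of at least 1 (24 to 25 on leaving out 1 library). Of 2 lower genes 1 was left in the fits over 16 and 15 libraries and at that fold change (1 to 3 on leaving out 1 library). Sars turned from 0.22 to -0.04 after rescaling, and the causes of these moves were not tested. The counts of 0 in KO inflamed against WT inflamed LECs and in the interaction were 0 under each alternative run.

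Replicate numbers did not pair the libraries: of 24 same-numbered pairs 1 had a correlation of deviations over 0.1 (range -0.135 to 0.179) and 8 correlated best with their own number. With a replicate block 24 genes were higher and 1 lower in KO inflamed against KO LECs, and 13 higher and 2 lower in WT inflamed against WT LECs without replicate 2. Levels near 1 TPM and the unknown depth limit Mars2, Ears2 and Nars2 most.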
